A study of Mus musculus with 6 samples.

Results

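Genes of the glutathione and antioxidant system were examined in the newborn mouse lens, in wild type mice and in mice with a single working copy of Pax6, a transcription factor needed to form the eye. The list held 36 genes, of which 33 had at least 1 probe set annotated to that gene alone, out of 12393 genes so measured on the array. Each gene stands at its brightest probe set, ranked by mean log2 signal across the 6 arrays. Prdx5 and Prdx6 had no such probe set and are not analysed here, and the probe sets of Prdx1 are annotated to a second gene as well.

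The array series held 3 samples of each genotype, and each sample was the RNA of the 2 lenses of a single mouse at postnatal day 1. The heterozygous mice were Pax6 lacZ/+, in which lacZ takes the place of 1 Pax6 copy in every cell of the animal, and the wild type mice were of the NMRI background. The sex of the pups was not given in the labels. Values are signals that the authors normalized by robust multichip average (RMA), on a linear scale, and differences are heterozygous minus wild type on the log2 scale. The signal of 1 probe set cannot be set against that of another as an amount of RNA, and fewer cells of a type and less RNA per cell cannot be told apart in whole lenses.

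The lens is unusually rich in glutathione, a small thiol that keeps the crystallins reduced and clear, and loss of glutathione is a known feature of cataract. Glutathione peroxidases, peroxiredoxins and catalase remove peroxides, superoxide dismutases remove superoxide, and thioredoxins and glutaredoxins restore oxidized protein thiols. Many of these genes are known targets of the transcription factor NRF2, which the adaptor KEAP1 holds back until cells meet oxidants or electrophiles.

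The samples had the markers of lens. The 8 measured fiber genes, among them the crystallins Crybb1 and Crygs, summed to signals of 57965 to 72666 in the 6 samples, and the 6 epithelium genes to 7737 to 9573. Of the epithelium genes, Gja1, Pax6, Cdh1, Pdgfra and Aqp1 were detected and Foxe3 stood at or near background. Pdgfra (−0.59) and the fiber gene Dnase2b (−0.51) were lower in every heterozygous than in any wild type sample. Aqp1 was higher (0.86), and the other lens markers overlapped between genotypes. Summed signals of 11 retina and neuron genes ranged from 829 to 953 in wild type and from 1081 to 1626 in heterozygous samples, with no overlap. Otx2 (0.94) and Stmn3 (0.78) had the largest differences of this list. Otx2 read 194, 156 and 156 in wild type and 442, 411 and 185 in heterozygous samples, which overlap. Most other genes of the list overlapped as well, and Rcvrn, a photoreceptor gene, was at background. The brightest Pax6 probe set read 1169, 1760 and 963 in wild type replicates 1, 2 and 3 and 942, 1170 and 882 in the heterozygous replicates. Its difference was −0.34 (limma, unadjusted p = 0.208). Other Pax6 probe sets differed by −0.69, −0.48, 0.19 and, at background, −0.11. In limma with a block on replicate number, the unadjusted p was 0.0315 for the brightest (adjusted p = 0.509). It was 0.000589 for the probe set at −0.69 (adjusted p = 0.246). A guide to background is given by 33 olfactory receptor probe sets, whose medians lay between 9.65 and 11.0.

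Antioxidant genes were widely detected in the newborn lens. A median signal of at least 100 was found for 22 of the 33 genes, 5 lay between 50 and 100 and 6 under 50. The 6 dim genes were Gstt1, Mgst3, Txnrd2, Glrx, Nqo1 and Keap1, and Mgst3, a microsomal transferase, had a mean signal within the range of the olfactory receptors.

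The estimated differences between genotypes were small for most of these genes. None of the 33 passed an adjusted p of 0.05 (limma, Benjamini-Hochberg over 22626 probe sets; 0.00% of all genes passed), and the smallest adjusted p among them was 1.00. Of the 33, 16 lay above 0 and 17 below, with a median difference of −0.01, the same to 2 decimals as the median of −0.01 over all genes. The differences ran from −0.42 for Msra to 0.79 for Gstt1, and 28 of the 33 were smaller than 0.25 in either direction. At an unadjusted p under 0.05, 1 gene was higher in heterozygous lenses, Gstt1, where 1.12% of all genes were called higher, and 0 were lower, where 1.12% of all genes were called lower. By the t-test that the methods name, 1 gene (3.03%) had an unadjusted p under 0.05, where 3.03% of all genes did so. The 95% interval of the difference lay wholly within 1 log2 unit of 0, a factor of 2 either way, for 28 of the 33 genes (84.8%, against 86.4% of all genes). It reached beyond for Gstm1, Gstt1, Glrx, Msra and Hmox1, so a 2-fold difference lay inside the interval of these 5 genes in the fit without a block. Under a block on replicate number the interval lay within 1 log2 unit for 32 of the 33 genes (97.0%, against 97.3% of all genes), and the exception was Gstt1, at 0.42 to 1.15.

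**Figure D1:**
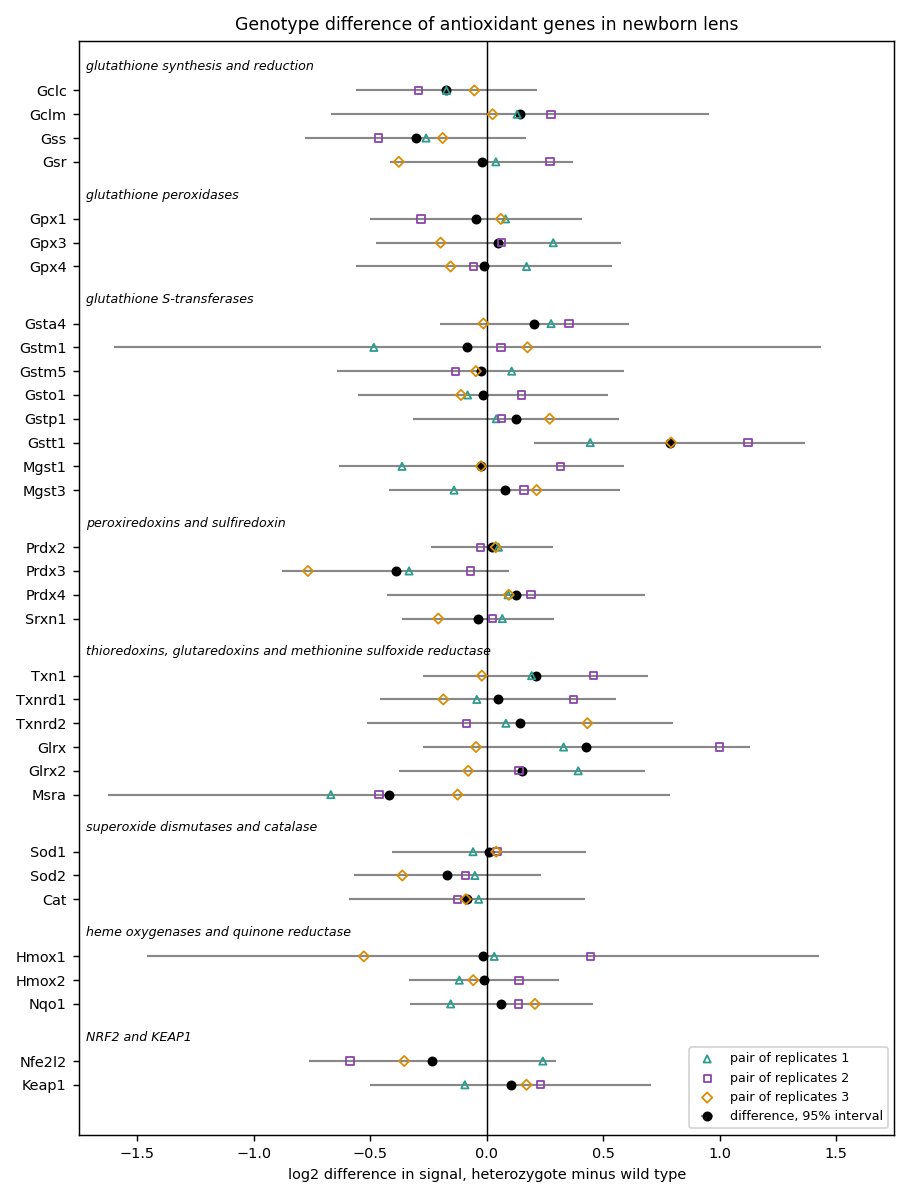
Log2 difference in signal, heterozygous minus wild type, of the 33 antioxidant genes, arranged by role; black points and grey bars give the difference and its 95% interval from limma with 3 mice per genotype, and open symbols the same difference within the 3 same-numbered pairs. Only the interval of Gstt1, from 0.20 to 1.37, leaves out 0, and its adjusted p was 1.00.

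Gstt1, which encodes the theta class glutathione S-transferase that acts on small halogenated compounds, had the clearest difference of the group. Its probe set read 36.2, 18.9 and 27.0 in wild type replicates 1, 2 and 3 and 49.3, 41.2 and 46.7 in the heterozygous replicates. Every heterozygous value lay above every wild type value. Wild type lenses averaged 27.4 ± 8.64 and heterozygous lenses 45.7 ± 4.11 (SD over 3 mice), a ratio of 1.67 and a log2 difference of 0.79 with a standard error of 0.24.

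The unadjusted p of Gstt1 was 0.0157 with limma and 0.0489 by the methods' t-test, and its adjusted p was 1.00. When any 1 sample was left out the difference stayed between 0.54 and 1.01, with an unadjusted p of at most 0.0488. Under a block on replicate number the unadjusted p was 0.00187 and the adjusted p 0.287. All 6 signals were under 50. The study lists Gstt1 among the genes that it chose on these same samples, so its direction is not independent evidence. The summed retina and neuron markers given above were also higher in every heterozygous sample, and those of 10 endothelial genes read 825 to 1974 in wild type and 1083 to 3590 in heterozygous lenses; their part in the Gstt1 difference was not tested. The genes of the retina and neuron list did not all run this way. Stmn3 was higher in every heterozygous than in any wild type sample (a difference of 0.78), as was Rcvrn at background. Elavl4, a neuronal gene, was lower (−0.50). The others, Otx2 among them, overlapped between genotypes.

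The other glutathione S-transferases join glutathione to electrophiles and lipid peroxidation products. Gstp1, the pi class enzyme, read 5184, 6322 and 4280 in wild type and 5333, 6602 and 5159 in heterozygous lenses, a difference of 0.12 with a 95% interval from −0.32 to 0.57. Gsta4, which clears hydroxynonenal, a product of lipid peroxidation, averaged 1116 ± 133 in the wild type and 1293 ± 223 in the heterozygous group (SD over 3 mice), a difference of 0.20 with an interval from −0.20 to 0.61. Values of the genotypes overlapped for both genes.

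Gstm1, a mu class transferase, differed far more between replicate numbers than between genotypes. It read 799, 2163 and 683 in wild type replicates 1, 2 and 3 and 571, 2256 and 771 in heterozygous replicates 1, 2 and 3. Replicate 2 was the highest sample of both genotypes, and the genotype difference was −0.08 with an interval from −1.60 to 1.44. With the replicate block the interval ran from −0.45 to 0.29. A second Gstm1 probe set, whose suffix _x_at marks probes that may also match other genes, read 747, 1961 and 721 in wild type and 546, 2198 and 825 in heterozygous lenses, in the same order of replicate 2 above the others. At background, with signals of 7.57 to 12.1, a further Gstm1 probe set spanned 1.32 fold between replicate means, highest in replicate 3. Another, at signals of 32.6 to 65.0, spanned 1.62 fold and was highest in replicate 2 of both genotypes. Gstm5, another mu class gene, read 2291, 4029 and 2697 in wild type and 2467, 3667 and 2610 in heterozygous lenses. It was also highest in replicate 2. The genes of the mu class are close in sequence, and how far their probes share targets was not tested.

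The remaining transferases lay close to 0. Gsto1, the omega class enzyme, averaged 142 ± 23.9 in the wild type and 142 ± 35.7 in the heterozygous group (SD over 3 mice), and Mgst1, a membrane-bound transferase, 248 ± 65.5 and 243 ± 57.6. The difference of Mgst3 was 0.08 at signals of 8.31 to 13.6, which is at background. In all, 4 of the 8 transferases lay above 0 and 4 below.

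Of the enzymes that make and recycle glutathione, 3 of 4 (75.0%) had lower means in heterozygous lenses, and none passed the test. Over all genes, 53.0% lay below 0. Gss, glutathione synthetase, which carries out the final step of synthesis, read 661, 707 and 874 in wild type replicates 1, 2 and 3 and 552, 512 and 767 in heterozygous replicates 1, 2 and 3. Each heterozygous value was below the wild type value of the same number, and the genotypes overlapped. The difference was −0.31 ± 0.20 (standard error; limma, unadjusted p = 0.169), and with the replicate block the unadjusted p was 0.0283 and the adjusted p 0.502. The difference was −0.48 when heterozygous replicate 3 was left out and −0.19 when either heterozygous replicate 2 or wild type replicate 3 was.

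Gclc and Gclm encode the catalytic and modifier subunits of glutamate-cysteine ligase, the rate-limiting enzyme of glutathione synthesis. Gclc read 93.6, 99.3 and 113 in wild type and 83.0, 81.0 and 109 in heterozygous lenses, a difference of −0.17 with a 95% interval from −0.56 to 0.21. Gclm read 53.6, 102 and 80.9 in wild type and 58.7, 123 and 82.3 in heterozygous lenses. Its difference was 0.14 with an interval from −0.67 to 0.95, and from −0.11 to 0.40 with the replicate block. Gclc was lower and Gclm higher in heterozygous lenses in all 3 same-numbered pairs. Gsr, glutathione reductase, which regenerates reduced glutathione with NADPH, averaged 971 ± 42.3 and 967 ± 176 in the same order (SD over 3 mice), a difference of −0.02.

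The differences of the 3 glutathione peroxidases were smaller than their standard errors. Gpx1, the cytosolic selenoenzyme, read 3074, 4025 and 2600 in wild type and 3250, 3309 and 2711 in heterozygous lenses, a difference of −0.05 with an interval from −0.50 to 0.41. Gpx3, the secreted form, differed by 0.05 and Gpx4, which reduces lipid peroxides in membranes, by −0.01. A second Gpx4 probe set read 87.9, 343 and 79.1 in wild type and 102, 335 and 69.8 in heterozygous lenses, so that replicate 2 stood far above the others in both genotypes while the genotype difference was −0.00128.

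Among the peroxiredoxins, thiol enzymes that reduce hydrogen peroxide, Prdx3 of the mitochondria had the largest difference. It read 300.4, 309 and 294.8 in wild type replicates 1, 2 and 3 and 238, 294.6 and 173 in heterozygous replicates 1, 2 and 3. The heterozygous values all lay below the wild type values, but the highest of them, that of replicate 2, did so by a very small margin. The wild type samples averaged 302 ± 7.30 and the heterozygous samples 235 ± 60.8 (SD over 3 mice), a difference of −0.39 ± 0.20 (standard error; limma, unadjusted p = 0.0981, adjusted p = 1.00). With the replicate block the unadjusted p was 0.0420 and the adjusted p 0.536, and leaving out any 1 sample gave differences from −0.57, without heterozygous replicate 2, to −0.19, without heterozygous replicate 3. Prdx3 and Gstt1 were the 2 genes of the 33 (6.06%) whose genotypes did not overlap, where 6.07% of all genes had no overlap in either direction.

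Prdx2, the abundant cytosolic peroxiredoxin, had the narrowest range of replicate means among the brightest probe sets of the group. It read 3264, 3568 and 3211 in wild type and 3379, 3499 and 3297 in heterozygous lenses, a difference of 0.02 with an interval from −0.24 to 0.28. Prdx4, the peroxiredoxin of the endoplasmic reticulum, read 1588, 991 and 1383 in wild type and 1691, 1131 and 1477 in heterozygous lenses. It was higher in heterozygous lenses in all 3 same-numbered pairs, by a small amount in each (0.09, 0.19 and 0.09), and lowest in replicate 2 of both genotypes. Srxn1, sulfiredoxin, which repairs over-oxidized peroxiredoxins, differed by −0.04. The 5 probe sets annotated to Prdx1 together with Gm21399 differed by −0.03 to 0.10.

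Of the thioredoxin, glutaredoxin and methionine sulfoxide reductase genes, 5 of 6 had higher means in heterozygous lenses and none passed the test. Only Msra lay below 0 (16.7%), where 53.0% of all genes did so. Txnrd1, counted as higher, was so in only 1 of the 3 same-numbered pairs. Glrx, cytosolic glutaredoxin, which removes glutathione from protein thiols, read 44.7, 30.3 and 32.2 in wild type and 56.2, 60.5 and 31.2 in heterozygous lenses. Heterozygous replicates 1 and 2 were above every wild type sample and replicate 3 was within the wild type range. The difference was 0.43 ± 0.29 (standard error; limma, unadjusted p = 0.191), 0.73 with an unadjusted p of 0.0153 without heterozygous replicate 3, and 0.25 without heterozygous replicate 2. The second, dimmer Glrx probe set differed by 0.45 (limma, unadjusted p = 0.0604), and with the replicate block its unadjusted p was 0.0114 and its adjusted p 0.432.

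Txn1, cytosolic thioredoxin, read 1190, 1060 and 946 in wild type and 1359, 1457 and 932 in heterozygous lenses, with heterozygous replicates 1 and 2 above and replicate 3 below the wild type range. Its difference was 0.21 with a 95% interval from −0.27 to 0.69, 0.41 without heterozygous replicate 3 (limma, unadjusted p = 0.0437), and 0.086 without heterozygous replicate 2. Txnrd1, the cytosolic thioredoxin reductase, differed by 0.05, Txnrd2 of the mitochondria by 0.14 at signals of 10.1 to 19.0, and Glrx2 by 0.15.

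Msra, methionine sulfoxide reductase A, which repairs oxidized methionine in proteins, had the most negative difference of the 33 genes and a wide spread. It read 67.3, 176 and 79.1 in wild type replicates 1, 2 and 3 and 42.3, 127 and 72.5 in heterozygous replicates 1, 2 and 3. Each heterozygous value was below the wild type value of the same number, and the genotypes overlapped widely. The difference was −0.42 ± 0.50 (standard error; limma, unadjusted p = 0.433). It was −0.82 when heterozygous replicate 2 was left out and 0.0024, so of the other sign, when wild type replicate 2 was. With the replicate block the standard error was 0.13, the unadjusted p 0.0193 and the adjusted p 0.465.

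**Figure D2:**
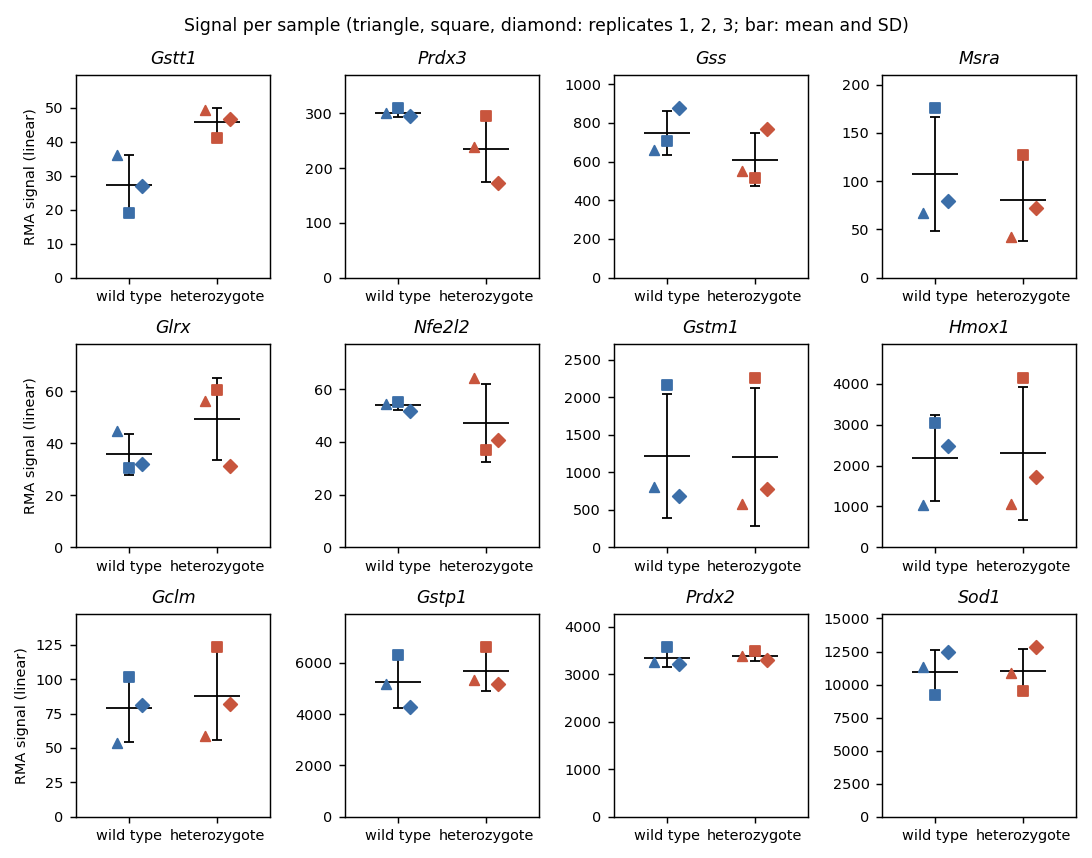
Linear RMA signal in each sample for 12 antioxidant genes, with wild type in blue and heterozygous in red; triangles, squares and diamonds are replicates 1, 2 and 3, and bars give the mean and SD of 3 mice. The genotypes are apart only for Gstt1 and, narrowly, for Prdx3, while Gstm1, Hmox1, Msra and Gclm follow the replicate number in both genotypes.

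Sod1, the copper-zinc superoxide dismutase of the cytosol, read 11315, 9191 and 12453 in wild type and 10859, 9476 and 12806 in heterozygous lenses. The difference of 0.01 had an interval from −0.41 to 0.43. Sod2, the manganese enzyme of the mitochondria, averaged 503 ± 46.2 and 451 ± 79.6 in wild type and in heterozygous mice (SD over 3 mice) and was lower in heterozygous lenses in all 3 same-numbered pairs, a difference of −0.17. Cat, catalase of the peroxisomes, read 956, 797 and 1174 in wild type and 933, 729 and 1103 in heterozygous lenses, also lower in all 3 pairs, with pair differences of −0.04, −0.13 and −0.09. Of the 33 genes, 10 (30.3%) kept 1 direction in all 3 same-numbered pairs, 4 higher and 6 lower in heterozygous lenses, where 32.1% of all genes did so.

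Hmox1 is the inducible heme oxygenase, which breaks down heme to biliverdin, carbon monoxide and iron. At the brightest probe sets it varied by replicate number more than any other gene of the group. It read 1026, 3046 and 2490 in wild type replicates 1, 2 and 3 and 1049, 4147 and 1727 in heterozygous replicates 1, 2 and 3. Replicate 1 was lowest and replicate 2 highest in both genotypes. The genotype difference was −0.02 with a 95% interval from −1.46 to 1.43, and from −0.48 to 0.45 with the replicate block. Hmox2, the constitutive form, averaged 185 ± 8.46 in the wild type and 184 ± 24.2 in the heterozygous group (SD over 3 mice), and Nqo1, a quinone reductase that is a classical NRF2 target, 28.5 ± 3.25 and 29.9 ± 4.86.

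Macrophages, which take up red cells and heme, are known for high Hmox1. The summed signal of 13 macrophage genes was 1727, 641 and 566 in wild type replicates 1, 2 and 3 and 1958, 1525 and 371 in heterozygous replicates 1, 2 and 3, with no gene at background. The sum was highest in replicate 1 of both genotypes, where Hmox1 was lowest. Lyz2 and Cd68 of this list were instead highest in replicate 2 of both genotypes, as Hmox1 was; Lyz2 read 70.4, 89.7 and 35.7 in wild type and 92.5, 242 and 24.3 in heterozygous lenses. The summed signal of 9 red cell genes was 1338, 1836 and 1137 in wild type and 1386, 1626 and 980 in heterozygous lenses, highest in replicate 2 as Hmox1 was. Of the 9, 5 stood at background, and the adult globins Hba-a2 and Hbb-b2 carried nearly all of the sum; Hba-a2 was highest in replicate 2 of both genotypes and Hbb-b2 in replicate 1. The part of either cell type in the replicate pattern of Hmox1 was not tested.

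When the replicate number was tested as a term beside the genotype, 8 of the 33 genes (24.2%) passed an adjusted p of 0.05 by the limma F test, a choice made after the values had been seen. Over all genes 21.1% passed, so the share in the antioxidant group is near the background. Among the genes with a median signal of at least 100 it was 5 of 22 (22.7%), where 33.6% of all such genes passed. The 8 were Gclm, Gstm1, Gstm5, Prdx4, Msra, Cat, Hmox1 and Keap1, each at its brightest probe set. Of the 27 further probe sets of the group, 4 (14.8%) passed, where 19.4% of all probe sets did so. Among them was the second Gpx4 probe set, whose replicate means spanned 4.56 fold (limma F test, adjusted p = 0.00678). The means of the 3 replicate numbers spanned 3.43 fold in Hmox1 (adjusted p = 0.0139), 3.27 fold in Gstm1 (adjusted p = 0.00869), 2.80 fold in Msra (adjusted p = 0.00976) and 1.99 fold in Gclm (adjusted p = 0.0133).

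They did not share 1 order of replicates. Gclm, Gstm1, Gstm5, Msra, Hmox1 and Keap1 were highest in replicate 2, whereas Prdx4 was lowest in replicate 2 and highest in replicate 1, and Cat was lowest in replicate 2 and highest in replicate 3. Over the 33 genes, replicate 2 had the highest mean for 17, replicate 1 for 9 and replicate 3 for 7. Over all 12393 genes, replicate 2 had the highest mean for 4072, replicate 1 for 4146 and replicate 3 for 4175. The reason for this difference in shares was not tested. The summed fiber markers were also highest in replicate 2 of both genotypes, at signals of 72666 and 71551. Mip and Cryba1 of this list were instead highest in replicate 3 of both genotypes. The part of the fiber genes was not tested. The labels and methods do not say what samples of the same number share, so litter, day and hybridization cannot be told apart.

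**Figure D3:**
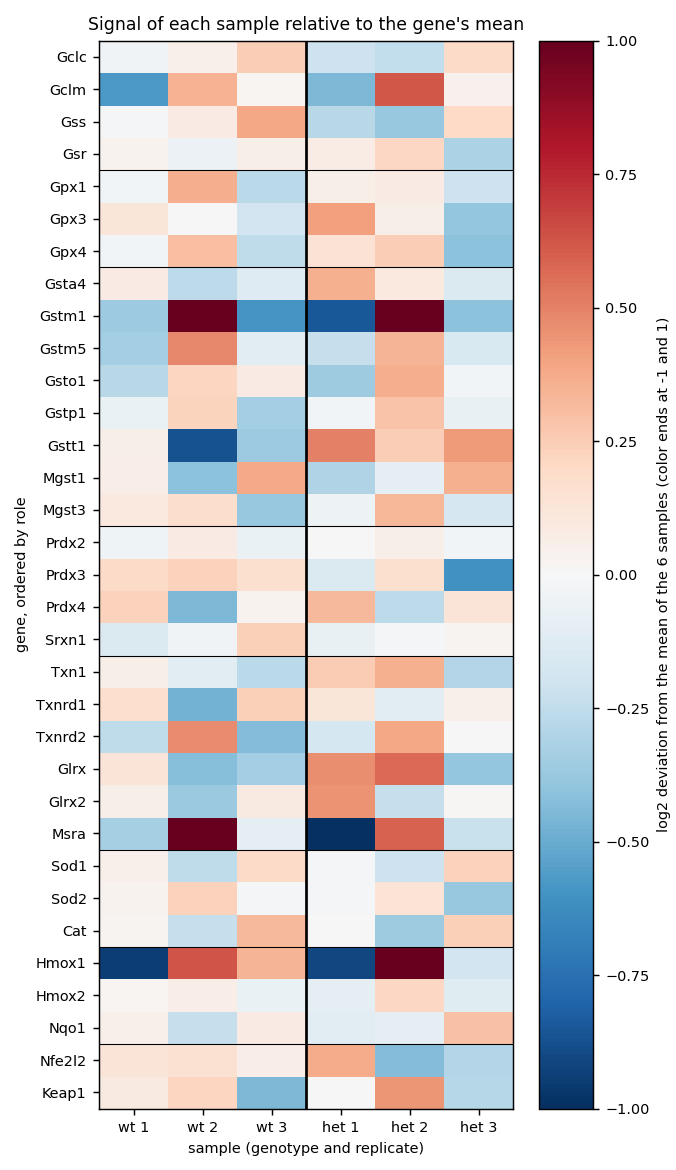
Log2 deviation of each sample from the mean of its gene over the 6 samples, for the 33 genes in order of role; red is above and blue below the mean, and the vertical line parts wild type from heterozygous samples. Replicate 2 stands out in red in both genotypes for Gclm, Gstm1, Gstm5, Msra and Hmox1, and Gstt1 is red in all 3 heterozygous samples and blue in wild type replicates 2 and 3.

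In 32 of the 33 genes (97.0%) the log2 range of the 3 replicate-number means was larger than the absolute difference between genotypes, Gstt1 being the exception. The same held for 87.8% of all genes. A range of 3 means and a difference of 2 are different quantities, so the count describes the spread and tests nothing. The median range was 0.53 for the antioxidant genes and 0.35 for all genes, but 0.46 and 0.48 among those with a median signal of at least 100. Over all signals, the median absolute genotype difference was 0.08 and 0.10.

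**Figure D4:**
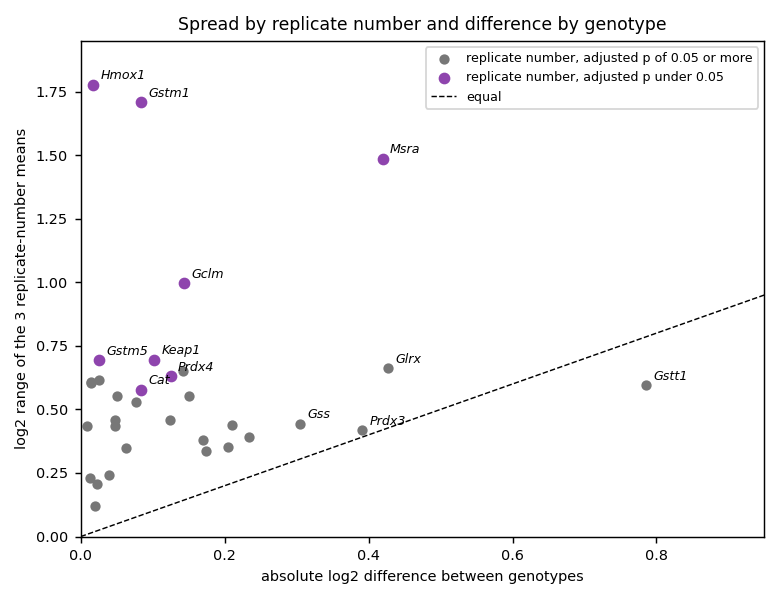
Absolute log2 difference between genotypes (horizontal) against the log2 range of the 3 replicate-number means (vertical) for the 33 genes; purple points passed an adjusted p of 0.05 for replicate number and the dashed line marks equal values. Hmox1, Gstm1, Msra and Gclm lie at the top with ranges from 1.00 to 1.78, and Gstt1 alone lies below the line.

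Under a block on replicate number, 4 of the 33 genes (12.1%) had an unadjusted p under 0.05 for genotype, where 9.83% of all genes did so in either direction. They were Gstt1, higher in heterozygous lenses, and Gss, Prdx3 and Msra, lower. None passed the adjusted threshold in that fit, where the smallest adjusted p was 0.287, that of Gstt1.

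Nfe2l2 encodes NRF2 and Keap1 its inhibitor. Nfe2l2 read 54.4, 55.3 and 51.9 in wild type replicates 1, 2 and 3 and 64.3, 36.8 and 40.6 in heterozygous replicates 1, 2 and 3. Heterozygous replicates 2 and 3 lay below all wild type samples and replicate 1 above them. The difference was −0.23 with a 95% interval from −0.76 to 0.30, −0.48 (limma, unadjusted p = 0.0128) without heterozygous replicate 1, and −0.076 without heterozygous replicate 2.

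Keap1 read 51.6, 56.4 and 35.5 in wild type and 48.4, 66.1 and 40.0 in heterozygous lenses, a difference of 0.10. Its second probe set read 8.01 to 8.42 in wild type and 9.24 to 10.4 in heterozygous lenses (limma, unadjusted p = 0.0473), values that lie at background. It was the single one of 27 further probe sets of the group with an unadjusted p under 0.05. Of these 27, 8 had a difference of the other sign than the brightest probe set of the gene. The median signal of 6 of the 8, for Gclc, Mgst1, Mgst3, Srxn1, Txn1 and Txnrd1, was under 20, and the other two differed by 0.26 for Gsto1 and −0.16 for Prdx2, neither with an unadjusted p under 0.05.

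The sequence that NRF2 binds, the antioxidant response element, has the core TGACNNNGC, and it was looked for on both strands of RefSeq promoters (build GRCm38.p6), each from 250 bases before to 50 bases after the start of a gene. Promoters were at hand for 30 of the 36 listed genes, all but Gclc, Gsr, Gsta4, Hmox1, Msra and Prdx6. The core was found for 8 of the 30 (26.7%) and for 14.0% of all 27025 genes with a promoter. Counted per promoter, the core was found in 18.6% of the 43 promoters of the 30 genes and in 12.4% of all 32851 promoters. Some genes have several promoters, so the share per gene also depends on how many promoters a gene has. The difference in shares was not tested. The sites are shown so that the members with the core can be set against the values above; a match is not a bound site. Each is 29 bases long, with the core in capitals, and is printed 5′ to 3′ on the strand on which the core reads TGAC first. The Prdx1 core also holds TGACTCA, the letters of the AP-1 motif.
Gclm (chr3:122245413-122245441, minus strand, 130 bases before the start): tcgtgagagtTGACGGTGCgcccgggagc
Gstm5 (chr3:107895802-107895830, plus strand, 38 bases before the start): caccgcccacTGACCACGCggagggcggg
Mgst1 (chr6:138140461-138140489, minus strand, 52 bases before the start): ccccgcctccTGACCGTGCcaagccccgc
Nfe2l2 (chr2:75704885-75704913, minus strand, 236 bases before the start): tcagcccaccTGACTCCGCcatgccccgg
Prdx1 (chr4:116685456-116685484, minus strand, 129 bases before the start): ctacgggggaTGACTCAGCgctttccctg
Sod1 (chr16:90220696-90220724, minus strand, 52 bases before the start): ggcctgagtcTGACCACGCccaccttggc
Srxn1 (chr2:152105542-152105570, minus strand, 33 bases after the start): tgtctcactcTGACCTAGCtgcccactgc
Txnrd1 (chr10:82859104-82859132, minus strand, 88 bases before the start): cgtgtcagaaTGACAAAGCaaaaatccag

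The 7 of these genes with a probe set of their own differed between genotypes by −0.23 (Nfe2l2), −0.04 (Srxn1), −0.03 (Gstm5), −0.02 (Mgst1), 0.01 (Sod1), 0.05 (Txnrd1) and 0.14 (Gclm). None of them had an unadjusted p under 0.05, and 2, Gclm and Gstm5, were among the 8 genes that varied by replicate number. The core was not found in the promoter of Gstt1.

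Of 64 further genes of glutathione and redox metabolism, 56 had a probe set of their own. None passed the adjusted threshold, and 4 of the 56 (7.14%) had an unadjusted p under 0.05, 1 on the higher and 3 on the lower side, where 1.12% of all genes were called on each side (2.24% in all). Among those with a median signal of at least 100 it was 1 of 25 (4%), where 1.94% of all such genes were called. Of the 56, 25 lay above 0 and 31 (55.4%) below, with a median of −0.04. Over all genes, 53.0% lay below 0. Mafg, a small MAF protein that pairs with NRF2 on DNA, read 409, 402 and 405 in wild type and 288, 315 and 341 in heterozygous lenses, with no overlap. Its difference was −0.37 ± 0.11 (standard error; limma, unadjusted p = 0.0168, adjusted p = 1.00). Of the 6 fits that leave out 1 sample, 5 kept an unadjusted p under 0.05, all but that without heterozygous replicate 1.

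Ephx1, microsomal epoxide hydrolase, which opens reactive epoxides, read 56.0, 54.1 and 36.4 in wild type and 73.0, 74.7 and 64.2 in heterozygous lenses. The values did not overlap, and the difference was 0.56 ± 0.19 (standard error; limma, unadjusted p = 0.0261). The unadjusted p was 0.05 or more without heterozygous replicate 1 or 2, with a difference of at least 0.36 in each fit that leaves out 1 sample. Ggt7, of the gamma-glutamyltransferase family, and Osgin1, a gene induced by oxidative stress, had lower values in every heterozygous than in any wild type sample, with differences of −0.31 and −0.36. Both read under 15 in all samples, at or near background, and the study lists Osgin1 among the genes that it chose on these samples. Of the 6 limma fits that leave out 1 sample, Ggt7 kept an unadjusted p under 0.05 in 2 and Osgin1 in 1.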

How the data were processed

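Total RNA of the 2 lenses of each mouse was amplified, biotin-labeled (NuGEN Ovation) and hybridized to Affymetrix arrays, 3 mice per genotype. The authors made the deposited intensity values by RMA, in which probes are background-corrected, brought to a common distribution and summarized per probe set; its version is not given in the sources used here. The values are linear, with medians of 21.4 to 22.8 per array, carry no count or depth, and compress differences of dim genes.

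Log2 signals of 22626 probe sets, without the manufacturer's controls, were fitted with limma 3.58.1 (lmFit, eBayes) in R 4.3.3, and p values were adjusted by Benjamini-Hochberg over all of them. Probe sets were named by the platform annotation, and all 33 measured members matched a RefSeq gene by Entrez number. The members and gene lists were chosen with earlier results of these data known. Promoters, from 250 bases before to 50 after a gene's start, were those of RefSeq (GRCm38.p6). Named were all members, other probe sets that differ in call, and related genes with an unadjusted p under 0.05. Steps were tested on simulated data. The simulated samples of the limma step were drawn independently, without the shared deviation of same-numbered samples, and the outcome is not given here. Tables and figures used Python 3.11.15, pandas 2.3.3 and matplotlib 3.10.9.

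Same-numbered samples deviated together from their genotype means (correlations of 0.645, 0.734 and 0.604), so every pair passed 0.1. Correlations between different numbers were −0.0751 to −0.496. Deviations within a genotype sum to 0, so these negative values follow from the positive ones and add no support. What the numbers share is not stated. The main fit had no block. An F test of the replicate number was added after the values had been seen. Alternatives were this block, the t-test of the methods (log2 or linear), quantile normalization, centring on array medians, floors of 50 and 100 on the median signal, an intensity trend (robust prior), array weights, adjustment over 1 probe set per gene, averaging a gene's probe sets, and omitting 1 sample at a time.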

Additional observations from a re-analysis of the deposited data

How the results depend on the processing

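No antioxidant gene passed an adjusted p of 0.05 under any alternative run; the smallest adjusted p was 0.287, with the replicate block, and that block changed no adjusted call. The count of members with an unadjusted p under 0.05 on the higher side was 0 with a median signal of at least 50 or of at least 100, since Gstt1 is dimmer, and 1 to 3 when a sample was left out (3 without heterozygous replicate 3: Gstt1, Glrx and Txn1). On the lower side it was 3 with the replicate block and 0 to 1 without 1 sample (Nfe2l2, Prdx3 or Gss, without heterozygous replicate 1, 2 or 3). The median difference of the members ranged from −0.069 to 0.059 without 1 sample. Of the related genes, 0 were higher with a median signal of at least 100 and with the intensity trend. On that side there were 2 with the replicate block and 0 to 3 without 1 sample. Lower were 1 with a median signal of at least 50 or 100, 5 with the block, and 1 to 3 without 1 sample. With the block, 12.5% of the related genes and 12.1% of the members had an unadjusted p under 0.05 in either direction. Over all genes 9.83% did so. Shares over all genes are not given here for the floors, the intensity trend or the fits without 1 sample, so those counts test nothing. Directions of many differences, that of Msra among them, were not stable, and the causes were not tested. Quantile normalization turned Gpx4 (0.0028), Gsto1 (0.0039) and Hmox2 (0.00043), array weights Gstm5 (0.0071) and Txnrd1 (−0.0068), median centring Prdx2 (−0.0053) and Sod1 (−0.017), the linear scale Gsto1 (0.0011) and Hmox1 (0.077), and the mean of all probe sets Gsto1 (0.12), Mgst1 (0.040), Mgst3 (−0.044) and Prdx2 (−0.069). When 1 sample was left out, 24 of the 33 genes changed sign at least once. Cat ranged from −0.22 to 0.074, Gclm −0.13 to 0.40, Glrx2 −0.036 to 0.30, Gpx1 −0.19 to 0.12, Gpx3 −0.14 to 0.26, Gpx4 −0.15 to 0.19, Gsr −0.13 to 0.13, Gstm1 −0.67 to 0.43, Gstm5 −0.20 to 0.21, Gsto1 −0.20 to 0.16, Gstp1 −0.016 to 0.27, Hmox1 −0.56 to 0.43, Hmox2 −0.12 to 0.046, Keap1 −0.10 to 0.27, Mgst1 −0.23 to 0.16, Mgst3 −0.095 to 0.18, Msra −0.82 to 0.0024, Nqo1 −0.067 to 0.13, Prdx2 −0.0092 to 0.067, Prdx4 −0.068 to 0.29, Sod1 −0.11 to 0.11, Srxn1 −0.12 to 0.070, Txnrd1 −0.18 to 0.18 and Txnrd2 −0.039 to 0.42. The number of arrays limits the precision.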
